A study of Saccharomyces cerevisiae with 6 samples.

Results

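The 9 genes described here encode the glyceraldehyde 3-phosphate dehydrogenases of *Saccharomyces cerevisiae* (*TDH1*, *TDH2*, *TDH3*) and the enzymes that make glycerol (*GPD1*, *GPD2*, *GPP1*, *GPP2*) and take it up again into metabolism (*GUT1*, *GUT2*). They were matched by gene symbol, as a set put together with earlier results of these data known, and are 9 of the 5925 genes in the tables. The study compared 2 yeast strains by RNA sequencing of poly(A) RNA, with 3 libraries per strain. The strain under test was BSGX001 (thi2Δ), which lacks a working *THI2* by its label, and it was set against its parent BSGX001. Both strains descended from CEN.PK 113-5D, carried Ru-XI, XK, gre3::PPP and a *cox4* deletion, and had gone through adaptive evolution in xylose. Both were sampled at 20 h, in what the labels call the GX stage, after growth at 30 °C and 200 rpm in YNB medium to which both sugars, glucose and xylose, had been added at 20 g/L. The labels speak of triplicates without saying that they were separate cultures, and do not say whether a strain is a single clone, so the p-values below measure only the spread between these libraries, which may be technical.

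Glyceraldehyde 3-phosphate dehydrogenase oxidizes a triose phosphate in the middle of glycolysis and reduces NAD+ to NADH. Cells that ferment form glycerol from the neighbouring triose, dihydroxyacetone phosphate: the Gpd enzymes reduce it to glycerol 3-phosphate with NADH, and the Gpp phosphatases release glycerol, so the branch returns NAD+ and also provides the main compatible solute under osmotic stress. The way back runs through the glycerol kinase Gut1 and the mitochondrial, FAD-linked glycerol 3-phosphate dehydrogenase Gut2, which passes electrons to the respiratory chain and whose gene, like *GUT1*, is known to be repressed by glucose.

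The libraries held 7613438 to 12255688 counts in BSGX001 (thi2Δ) and 7584920 to 10073703 counts in BSGX001. *THI2* itself had 9.81, 10.9 and 13.9 CPM (the number of counts scaled to a common library size) in BSGX001 (thi2Δ), against 22.7, 24.5 and 27.0 CPM in BSGX001, so it was lower in all 3 libraries labelled thi2Δ without being absent from any of them. How much of the gene the deletion removes was not given in the sources used here. Reads were also counted for the 2 genes that both strains carry as disrupted by their labels: *COX4*, a subunit gene of cytochrome c oxidase, had 41.4 ± 2.82 CPM in BSGX001 (thi2Δ) and 32.2 ± 3.66 CPM in BSGX001, and *GRE3*, an aldose reductase gene, had 48.5 ± 6.50 CPM in BSGX001 (thi2Δ) and 63.0 ± 2.68 CPM in BSGX001 (SD, n = 3 each). By the labels all 6 libraries carry the same alleles, so none gives a level of intact *COX4* or *GRE3* to compare with. The counts therefore neither show nor contradict the *cox4* and *gre3* alleles that the labels give. Levels below are CPM scaled by edgeR's trimmed mean of M values (TMM), and a gene was called where edgeR's quasi-likelihood test gave a Benjamini-Hochberg adjusted p under 0.05 over all 5774 genes tested. By this rule 51.3% of all genes tested were called, 26.1% higher and 25.2% lower in BSGX001 (thi2Δ). Of the 9 genes, 3 were higher (*TDH3*, *GPD1*, *GUT1*), 4 were lower (*TDH2*, *GPD2*, *GPP1*, *GPP2*) and 2 did not pass (*TDH1*, *GUT2*), so that 7 of the 9 were called beside 51.3% of all genes. The 3 libraries of each strain did not overlap for 6 of the 9 genes (57.8% of all genes), 2 above (29.1% of all genes) and 4 below (28.7% of all genes).

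The scale matters for the small differences. With library totals alone in place of TMM the median of all genes moved to 0.22 on the log2 scale, against 0.0093 with TMM, and the calls became 2999 higher and 595 lower (83.4% higher), against 1507 and 1457 (50.8% higher). On that scale 5 of the 9 genes were higher and 3 were lower. *TDH3*, *GPD2*, *GPP1*, *GPP2* and *GUT1* kept their call and direction under all 16 alternatives tried. *TDH1*, *TDH2*, *GPD1* and *GUT2* did not, and the values concerned are given with each gene.

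**Figure D1:**
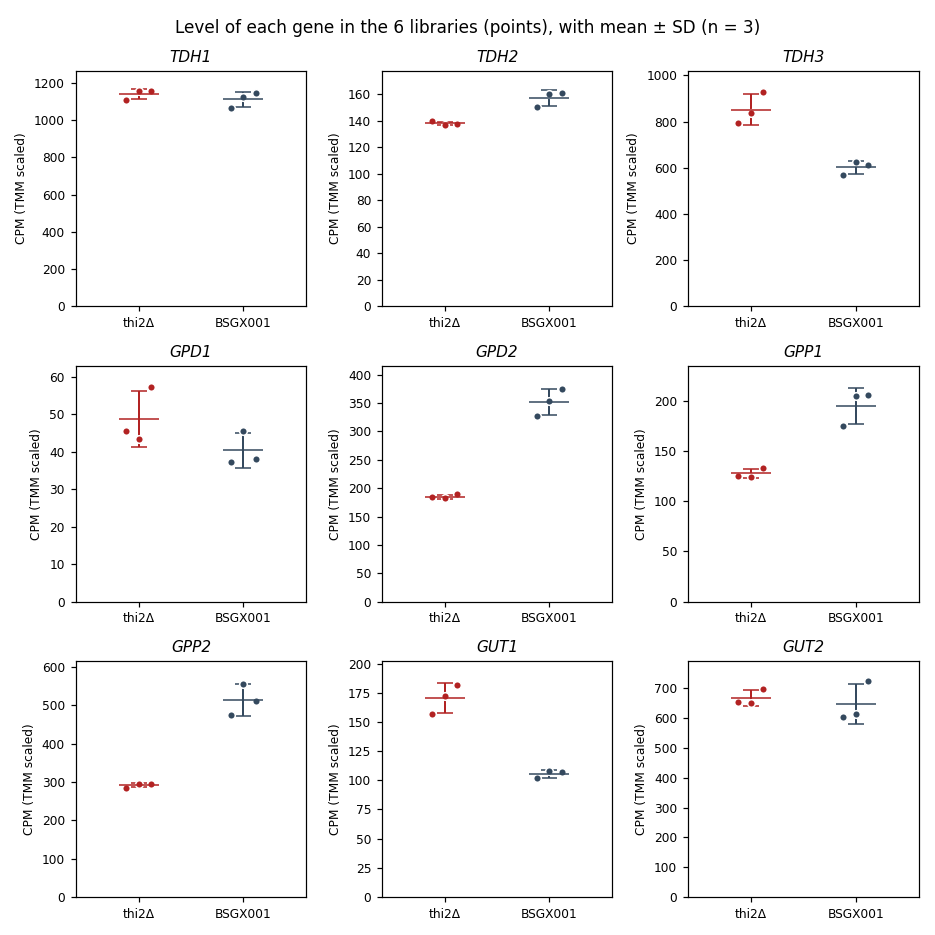
TMM-scaled CPM of each of the 9 genes on axes that start at 0, with BSGX001 (thi2Δ) (tick label thi2Δ) left of BSGX001. Points are the 3 libraries of a strain and bars the mean ± SD. *TDH3* and *GUT1* lie wholly above BSGX001, *GPD2*, *GPP1*, *GPP2* and *TDH2* wholly below it, and *TDH1*, *GPD1* and *GUT2* overlap.

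The 3 *TDH* genes are so alike that their sequences bear on how reads can be assigned. Each has a coding sequence of 999 bases in 1 exon. *TDH1* lies on chromosome X at 338271 to 339269 (plus strand), *TDH2* on chromosome X at 453683 to 454681 (minus strand) and *TDH3* on chromosome VII at 882812 to 883810 (minus strand) of R64. *TDH2* and *TDH3* were identical at 95.8% of their coding bases, *TDH1* and *TDH2* at 90.2%, and *TDH1* and *TDH3* at 88.9%. Coding bases 64 to 123, the 60-base window with the most differences between *TDH2* and *TDH3*, show where reads can tell the 3 genes apart, with positions not shared by all 3 in capitals:
TDH1: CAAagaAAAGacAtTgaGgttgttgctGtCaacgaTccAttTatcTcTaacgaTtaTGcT
TDH2: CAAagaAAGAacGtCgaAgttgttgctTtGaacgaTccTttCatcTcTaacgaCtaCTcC
TDH3: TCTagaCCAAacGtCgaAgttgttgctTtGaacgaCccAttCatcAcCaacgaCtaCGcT

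Coding bases 355 to 527 show the opposite case, a run of 173 bases in which *TDH2* and *TDH3* are the same, with the 18 positions at which *TDH1* differs in capitals:
TDH1: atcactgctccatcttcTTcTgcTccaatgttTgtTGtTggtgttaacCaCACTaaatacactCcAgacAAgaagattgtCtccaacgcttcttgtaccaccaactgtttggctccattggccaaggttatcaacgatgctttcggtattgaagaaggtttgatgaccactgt
TDH2 and TDH3: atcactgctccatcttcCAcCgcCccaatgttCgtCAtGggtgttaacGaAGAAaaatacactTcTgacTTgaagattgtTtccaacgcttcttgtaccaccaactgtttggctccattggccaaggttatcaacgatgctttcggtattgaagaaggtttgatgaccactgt
Of all 50-base windows of the coding sequence, 15.7% for *TDH1*, 31.3% for *TDH2* and 24.4% for *TDH3* occurred elsewhere in the R64 genome as well. None of the windows of the other 6 genes did. The treatment of reads that fit several genes was not given in the sources used here. The values of single *TDH* genes are therefore uncertain, by an amount that these shares of windows do not measure. How much of a difference between the *TDH* genes comes from shared reads was not tested.

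*TDH1*, the isoenzyme known for its expression in cells that have slowed or stopped growing, was the most abundant of the 9 transcripts in both strains. It had 1109, 1156 and 1154 CPM in BSGX001 (thi2Δ), against 1065, 1122 and 1146 CPM in BSGX001. The strains overlapped, and the log2 difference of 0.04 (SE 0.071, 95% interval -0.11 to 0.18, adjusted p = 0.686) did not pass. With library totals alone *TDH1* was higher by 0.25 (adjusted p = 0.00148), close to the shift of the median gene on that scale.

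*TDH3*, known as the main isoenzyme of growing cells, was higher in BSGX001 (thi2Δ). It had 794, 836 and 927 CPM there, against 571, 624 and 612 CPM in BSGX001. Each library of BSGX001 (thi2Δ) lay above all those of BSGX001, and the means were 852 ± 67.9 and 602 ± 27.7 CPM (SD, n = 3 each). The difference was 0.50 on the log2 scale (SE 0.073, adjusted p = 1.09e-06 in edgeR's quasi-likelihood test), or 1.42-fold with a 95% interval of 1.28 to 1.57.

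*TDH2*, the closest relative of *TDH3*, was the least abundant of the 3. It had 139, 137 and 137 CPM in BSGX001 (thi2Δ), against 150, 160 and 161 CPM in BSGX001. The libraries did not overlap, and the log2 difference was -0.19 (SE 0.069, adjusted p = 0.0244). This direction turned with library totals alone (0.03, adjusted p = 0.71), and the call was lost on leaving out any 1 of 4 libraries, replicate 2 or 3 of either strain (adjusted p from 0.0604 to 0.0788). With the counts of *TDH2* and *TDH3* summed, a choice made after seeing the data, the pair had 990 ± 67.0 CPM in BSGX001 (thi2Δ) and 759 ± 33.6 CPM in BSGX001 (SD, n = 3 each), a log2 difference of 0.38 (adjusted p = 5.49e-05). All 3 genes summed had 2130 ± 87.5 CPM in BSGX001 (thi2Δ) and 1870 ± 73.6 CPM in BSGX001, a log2 difference of 0.19 (adjusted p = 0.0363) that was 0.41 with library totals alone.

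Ratios of genes within a library do not depend on how libraries are scaled. The log2 ratio of *TDH1* to *TDH3* counts was 0.48, 0.47 and 0.32 in BSGX001 (thi2Δ), against 0.90, 0.85 and 0.91 in BSGX001. That of *TDH2* to *TDH3* was -2.51, -2.61 and -2.76 in BSGX001 (thi2Δ), against -1.93, -1.96 and -1.93 in BSGX001. In neither ratio did the strains overlap, and the differences of the means were -0.46 and -0.69. In all, 6 such ratios were compared, and each gave p = 0.1 in an exact two-sided permutation test (0.1 after Benjamini-Hochberg adjustment), which is the smallest p that 3 libraries against 3 allow. In FPKM, the deposited values divided by gene length and depth and so the unit by which levels of different genes can be set side by side, *TDH3* made up 40.0 ± 1.58% of the summed *TDH* level in BSGX001 (thi2Δ) and 32.2 ± 0.466% in BSGX001. *TDH1* made up 53.6 ± 1.31% in BSGX001 (thi2Δ) and 59.4 ± 0.466% in BSGX001 (SD, n = 3 each).

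**Figure D2:**
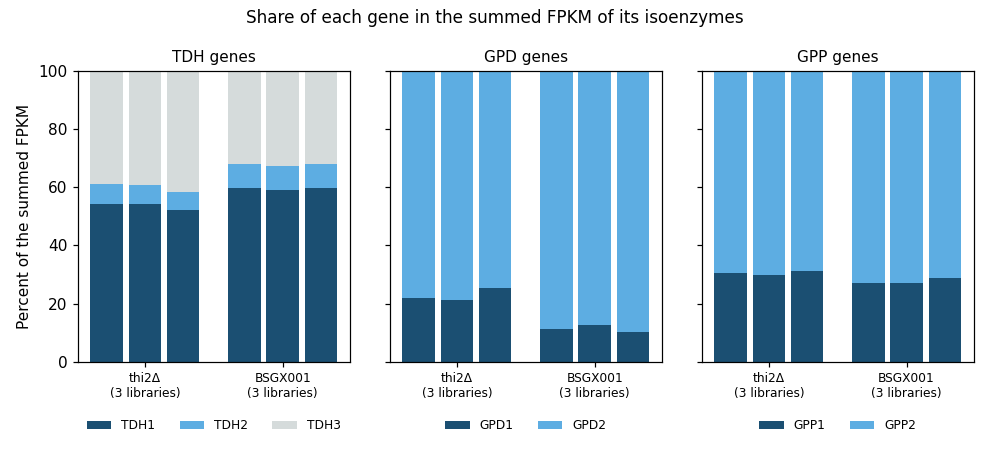
Percent of the summed FPKM that each isoenzyme gene holds, 1 bar per library, with the 3 libraries of BSGX001 (thi2Δ) (tick label thi2Δ) left of the 3 of BSGX001. *TDH3* holds 38.9 to 41.8% in BSGX001 (thi2Δ) and 31.9 to 32.7% in BSGX001, and *GPD1* holds 21.2 to 25.4% in BSGX001 (thi2Δ) and 10.3 to 12.7% in BSGX001.

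The first step of glycerol formation is catalysed by Gpd1, whose gene is known for its induction by osmotic stress, and Gpd2, whose gene is known for its response to lack of oxygen and surplus NADH. *GPD2* (chromosome XV, 217126 to 218448, plus strand) was by count the more abundant and was lower in BSGX001 (thi2Δ), with 184, 182 and 189 CPM, against 328, 353 and 374 CPM in BSGX001. The strains were far apart and did not overlap. The log2 difference was -0.93 (SE 0.068, adjusted p = 1.38e-12), the largest of the 9, with means of 185 ± 3.62 CPM in BSGX001 (thi2Δ) and 352 ± 23.2 CPM in BSGX001 (SD, n = 3 each). The median log2 difference of its 14 nearest genes along the chromosome was -0.28, the lowest such value among the 9 genes.

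*GPD1* (chromosome IV, 411825 to 413000, plus strand) had 45.5, 43.4 and 57.1 CPM in BSGX001 (thi2Δ), against 37.3, 45.6 and 38.0 CPM in BSGX001. Replicate 3 of BSGX001 (thi2Δ) was the highest, and the strains overlapped. The log2 difference was 0.27 (SE 0.10, adjusted p = 0.0244). The call rested on few libraries, since the adjusted p was 0.279 without replicate 3 of BSGX001 (thi2Δ), 0.112 without replicate 1 of BSGX001 and 0.106 without replicate 3 of BSGX001, and DESeq2's Wald test gave 0.0583.

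The balance of the pair differed more than either gene alone. The log2 ratio of *GPD1* to *GPD2* counts was -2.02, -2.07 and -1.73 in BSGX001 (thi2Δ), against -3.13, -2.95 and -3.30 in BSGX001. The strains did not overlap, and the ratio was 2.29-fold higher in BSGX001 (thi2Δ), a difference of 1.19 on the log2 scale (exact permutation p = 0.1). *GPD2* remained the larger share of the summed FPKM in both strains, 77.2 ± 2.27% in BSGX001 (thi2Δ) and 88.6 ± 1.21% in BSGX001 (SD, n = 3 each). The summed counts of the pair came to 234 ± 10.9 CPM in BSGX001 (thi2Δ) and 392 ± 24.2 CPM in BSGX001 (log2 difference -0.74, adjusted p = 1.55e-10), and the sum was also lower with library totals alone (-0.53).

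The second step is carried out by the glycerol 3-phosphate phosphatases Gpp1, known from cells growing without oxygen, and Gpp2, known for its induction by osmotic stress. Both genes were lower in BSGX001 (thi2Δ). *GPP2* (chromosome V, 279930 to 280682, minus strand) had 285, 295 and 295 CPM in BSGX001 (thi2Δ), against 474, 557 and 511 CPM in BSGX001. All 3 libraries of BSGX001 (thi2Δ) lay below, and the log2 difference was -0.82 (SE 0.070, adjusted p = 3.16e-11), or 0.568 times the level in BSGX001.

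*GPP1* (chromosome IX, 255115 to 255867, plus strand) had 126, 125 and 133 CPM in BSGX001 (thi2Δ), against 175, 205 and 206 CPM in BSGX001. These too did not overlap, and the log2 difference was -0.61 (SE 0.074, adjusted p = 4.28e-08), or 0.656 times the level in BSGX001. The median of its 14 nearest genes was 0.23, opposite in sign. The 2 phosphatase genes share 82.7% of their coding bases, with no run of identity longer than 26 bases. Their summed counts came to 420 ± 8.68 CPM in BSGX001 (thi2Δ) and 709 ± 56.9 CPM in BSGX001 (SD, n = 3 each), a log2 difference of -0.76 (adjusted p = 2.42e-10) that was -0.54 with library totals alone. The log2 ratio of *GPP1* to *GPP2* was higher by 0.21 in BSGX001 (thi2Δ), without overlap (exact permutation p = 0.1), and *GPP1* held 30.5 ± 0.736% of the summed FPKM in BSGX001 (thi2Δ) and 27.5 ± 1.03% in BSGX001.

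**Figure D3:**
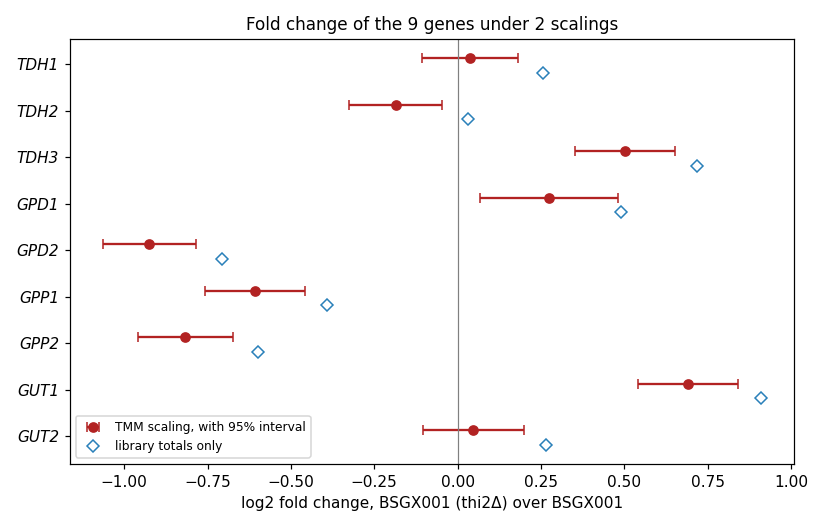
Log2 fold change, BSGX001 (thi2Δ) over BSGX001, of the 9 genes, as filled circles with 95% intervals under TMM scaling and as open diamonds with library totals alone. *GPD2*, *GPP1* and *GPP2* lie below 0 and *TDH3*, *GPD1* and *GUT1* above 0 on both scales, whereas *TDH2* changes side.

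Of the genes for glycerol use, *GUT1* was higher in BSGX001 (thi2Δ) while *GUT2* did not pass. *GUT1*, which encodes glycerol kinase (chromosome VIII, 36379 to 38508, minus strand), had 157, 173 and 182 CPM in BSGX001 (thi2Δ), against 102, 108 and 107 CPM in BSGX001. All libraries of BSGX001 (thi2Δ) lay above those of BSGX001, with means of 171 ± 12.8 and 106 ± 3.24 CPM (SD, n = 3 each). The log2 difference was 0.69 (SE 0.073, adjusted p = 2.93e-09), or 1.62-fold.

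*GUT2* (chromosome IX, 51759 to 53708, minus strand) had 654, 652 and 700 CPM in BSGX001 (thi2Δ), against 603, 614 and 726 CPM in BSGX001. Replicate 3 of BSGX001 was the highest of the 6 libraries, and the strains overlapped. The log2 difference was 0.05 (SE 0.075, 95% interval -0.10 to 0.20, adjusted p = 0.619). With library totals alone it was 0.27 (adjusted p = 0.0017), again close to the shift of the median gene. *GUT1* and *GUT2* are successive enzymes and not isoenzymes, and the log2 ratio of their counts was -2.06, -1.92 and -1.94 in BSGX001 (thi2Δ), against -2.56, -2.51 and -2.77 in BSGX001. The ratio was thus 1.56-fold higher in BSGX001 (thi2Δ), without overlap (exact permutation p = 0.1).

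By FPKM the order of the 9 levels in BSGX001 (thi2Δ) was *TDH1* (1230), *TDH3* (920), *GPP2* (418), *GUT2* (370), *GPP1* (183), *GPD2* (151), *TDH2* (149), *GUT1* (86.4) and *GPD1* (44.7). Of the neighbours in this order, the libraries of *GPD2* and *TDH2* overlapped and all others were apart. In BSGX001 the order was *TDH1* (1031), *GPP2* (633), *TDH3* (559), *GUT2* (308), *GPD2* (246), *GPP1* (240), *TDH2* (146), *GUT1* (45.9) and *GPD1* (31.8). There *GPD2* and *GPP1* overlapped. *TDH3* thus stood above *GPP2* in BSGX001 (thi2Δ) and below it in BSGX001. The 9 genes together took 0.372 to 0.409% of all counts in BSGX001 (thi2Δ) and 0.330 to 0.354% in BSGX001. These are shares of unscaled library totals, the scale on which the median log2 difference of all genes was 0.22. They therefore do not show that the group as a whole was higher in BSGX001 (thi2Δ).

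*GPD1* and *GPP2* are both known for induction by osmotic stress, and *GPD2* for its response to lack of oxygen. *GPD2* and *GPP2* were lower in BSGX001 (thi2Δ), whereas *GPD1* was higher with overlapping libraries and a call that 4 of the 16 alternatives lost. The windows upstream of these 3 glycerol genes are shown. Each covers 400 to 101 bases before the start codon in R64, read along the gene, with matches to CTTCC (the core bound by Gcr1), CCCCT (the stress response element bound by Msn2 and Msn4), CCAAT (the HAP complex) and CCCCAC (a GC-box core of the kind bound by Mig1), searched on both strands, in capitals:
GPD1, chrIV:411425-411724, plus strand: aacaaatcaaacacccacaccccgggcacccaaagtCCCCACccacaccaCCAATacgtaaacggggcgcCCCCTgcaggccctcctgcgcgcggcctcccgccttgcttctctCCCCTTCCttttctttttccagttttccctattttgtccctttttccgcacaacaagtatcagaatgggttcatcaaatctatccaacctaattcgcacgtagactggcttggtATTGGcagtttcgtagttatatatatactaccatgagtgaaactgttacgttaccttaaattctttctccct
GPD2, chrXV:216726-217025, plus strand: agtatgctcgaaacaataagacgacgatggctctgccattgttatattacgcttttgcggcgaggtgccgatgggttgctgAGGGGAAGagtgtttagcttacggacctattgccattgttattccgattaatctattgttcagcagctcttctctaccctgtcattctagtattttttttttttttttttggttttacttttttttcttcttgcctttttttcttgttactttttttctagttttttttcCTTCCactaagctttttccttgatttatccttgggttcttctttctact
GPP2, chrV:280783-281082, minus strand: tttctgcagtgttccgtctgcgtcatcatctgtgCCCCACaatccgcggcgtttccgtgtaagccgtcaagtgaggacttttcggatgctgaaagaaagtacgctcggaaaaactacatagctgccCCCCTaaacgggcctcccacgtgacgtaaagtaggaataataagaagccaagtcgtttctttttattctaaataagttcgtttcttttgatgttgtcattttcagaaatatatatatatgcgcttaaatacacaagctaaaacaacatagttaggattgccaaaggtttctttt

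The stress response element CCCCT lay 330 and 286 bases before the start codon of *GPD1*, 319 bases before that of *GPD2* and 274 bases before that of *GPP2*. Over the 9 genes it was found in 7 windows, and 23.5% of 6001 windows of the same length over all genes held it. The Gcr1 core lay at 283 in *GPD1* and at 316 in *GPD2*, each time overlapping a stress response element, and also at 149 in *GPD2*. It was found in 5 of the 9 windows and in 47.0% of all windows. The HAP motif lay at 350 and 172 in *GPD1*, and was found in 4 of the 9 windows and in 43.9% of all windows. The GC-box core lay at 364 in *GPD1* and at 366 in *GPP2*, the only 2 of the 9 windows with a match, and 5.52% of all windows held it. The window of *GPP1* held none of the 4 motifs. A match of this kind describes the sequence only, and the genes with a stress response element included ones that were higher, lower and not called.

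A further 50 genes around these enzymes were read from the same fit. Of them 11 were higher, 20 lower and 19 not called, with a median log2 difference of -0.09, beside 0.0093 over all genes. Over all genes tested, 26.1% were higher and 25.2% lower, the background against which these counts and those of each list stand under TMM scaling. List counts with library totals alone stand against 2999 higher and 595 lower of the 5774 genes tested. Genes around glycerol uptake, export and its channel, not all of which encode transporters, gave 3 higher, 2 lower and 1 not called of 6 (median 0.21). *STL1*, the glycerol and proton symporter, was higher by 0.57 (adjusted p = 6.41e-05), as were *GUP1* (0.40) and *GUP2* (0.41). The call of *GUP2* was lost without replicate 1 of BSGX001 (thi2Δ) (adjusted p = 0.0867) and without replicate 1 of BSGX001 (0.0656). *ASK10*, a regulator of the glycerol channel, was lower at -0.54 (adjusted p = 4.07e-07), and the channel gene *FPS1* was lower at -0.26, a call lost with library totals alone.

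Genes of lipid synthesis that act on glycerol 3-phosphate or on acyl dihydroxyacetone phosphate gave 2 higher and none lower of 3 (median 0.49). These were *AYR1* (0.62, adjusted p = 1.59e-05), whose product reduces acyl dihydroxyacetone phosphate, and the acyltransferase gene *GPT2* (0.49, adjusted p = 1.81e-06). The second acyltransferase gene, *SCT1*, had -0.09 and was not called. The dihydroxyacetone route of glycerol use gave 2 lower and none higher of 4 (median -0.17, and 0.05 with library totals alone). *DAK2*, a dihydroxyacetone kinase gene, was at -0.75 (adjusted p = 4.39e-09). *YPR1* was at -0.23, a call lost with library totals alone and without replicate 1 of BSGX001 (thi2Δ) (adjusted p = 0.0605) or replicate 3 of BSGX001 (0.0622).

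Of the 3 mitochondrial NADH dehydrogenase genes beside *GUT2*, *NDE2* was higher (0.53, adjusted p = 3.67e-06), while *NDE1* (-0.23) and *NDI1* (-0.29) were lower, both calls lost with library totals alone, and that of *NDE1* also without replicate 3 of BSGX001 (adjusted p = 0.0714). The triose phosphate steps beside the *TDH* reaction gave 2 higher of 3 (median 0.29). *TPI1*, encoding triose phosphate isomerase, was higher by 0.35 (adjusted p = 0.000125) and *PGK1*, encoding phosphoglycerate kinase, by 0.29 with overlapping libraries. Without replicate 3 of BSGX001 (thi2Δ), or without replicate 1 of BSGX001, 1 of the 3 was called. *FBA1*, encoding aldolase, had 0.06 and was not called. With library totals alone *FBA1* was higher by 0.27 (adjusted p = 0.00137), and all 3 genes were called higher, beside a median of 0.22 over all genes on that scale.

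The osmotic stress (HOG) pathway gave 3 higher, 8 lower and 9 not called of 20 (median -0.09). With library totals alone it gave 8 higher and 7 lower (median 0.13), beside 2999 higher and 595 lower of all 5774 genes tested. *CDC42*, a GTPase of cell polarity, was higher by 1.26 (adjusted p = 6.05e-15), and the 14 genes nearest to it on chromosome XII had a median of 0.69. None of the 9 enzyme genes lies on chromosome XII, and the medians of their own neighbours ran from -0.28 to 0.23. The other 2 higher genes were *SHO1* (0.49), which encodes a membrane sensor, and the kinase gene *STE20* (0.19), whose call was lost without replicate 3 of BSGX001 (thi2Δ) (adjusted p = 0.22), without replicate 3 of BSGX001 (0.208) and in DESeq2's Wald test (0.067). The 8 lower genes were the transcription factor genes *SMP1* (-0.72, adjusted p = 6.01e-10) and *MSN4* (-0.61), the kinase genes *SSK2* (-0.67), *SSK22* (-0.43) and *STE11* (-0.54), the response regulator gene *SSK1* (-0.62), and the sensor genes *HKR1* (-0.44) and *SLN1* (-0.36, a call lost with library totals alone). Limma on log2(FPKM + 1) lost the calls of *HKR1* (adjusted p = 0.0814), *SSK22* (0.0927) and *SLN1* (0.168). *YPD1* (0.25) and *HOG1* (-0.08), which encodes the kinase itself, were among the 9 not called.

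Regulators of *GUT1* and *GUT2* gave 5 lower and none higher of 7 (median -0.35), and 3 lower and 1 higher with library totals alone. *INO2*, an activator of phospholipid synthesis genes that also acts on *GUT1*, was lower at -0.85 (adjusted p = 1.32e-10), and its repressor *OPI1* at -0.53. *RSF2* (-0.47), *ADR1* (-0.35) and *INO4* (-0.32) were the others, of which *ADR1* and *INO4* lost the call with library totals alone. *GUT1* itself was higher in the same libraries. Of 4 transcription factor genes of glycolysis, *RAP1* was lower (-0.53, adjusted p = 3.14e-07), while *GCR1* (-0.08), *GCR2* (-0.12) and *TYE7* (0.05) were not called.

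**Figure D4:**
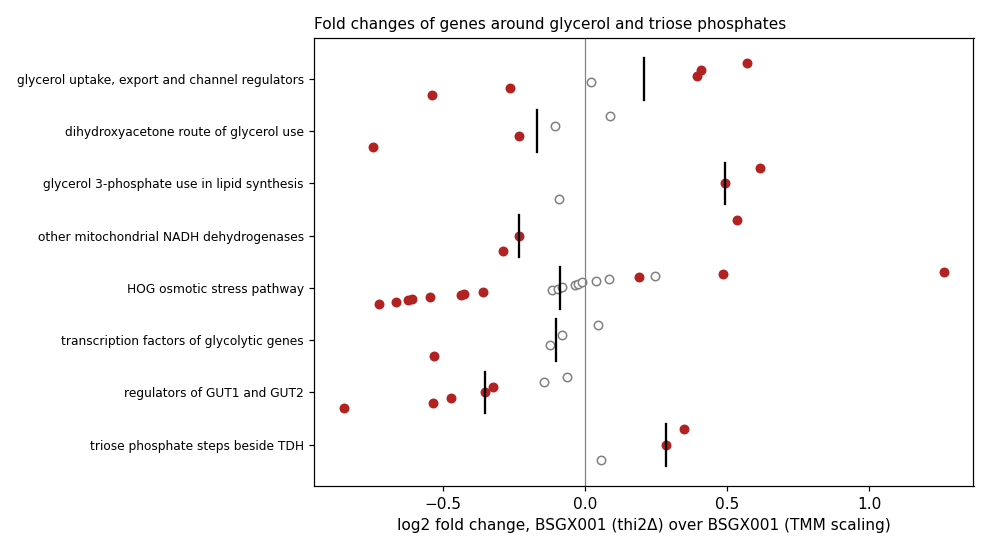
Log2 fold change, BSGX001 (thi2Δ) over BSGX001, of the 50 further genes under TMM scaling, 1 point per gene and 1 row per list. Filled points have an adjusted p under 0.05, open points do not, and the black bars are list medians, which run from -0.35 for the regulators of *GUT1* and *GUT2* to 0.49 for lipid synthesis.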

How the data were processed

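Poly(A) RNA of 6 yeast libraries, 3 per strain, had been sequenced on an Illumina instrument. The authors deposited, per library, whole-number counts of reads per gene and FPKM values, which divide those counts by gene length and library total. The submitters' processing notes name build R64 and DESeq, and the aligner and counter are not given in the sources used here. Separate tables of counts and of FPKM, whose 12 columns repeat the same values, were not used. Neither were tables of the authors' own fold changes, p-values and q-values.

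Genes were assigned by symbol, and 5923 of the 5925 gene identifiers matched the R64 annotation. Counts were fitted in R 4.3.3 with edgeR 4.0.16 (TMM scaling, filterByExpr, robust quasi-likelihood test) on all 5774 genes passing the filter, with Benjamini-Hochberg adjustment over all of them and strain as the only term. The biological coefficient of variation was 0.0628. The fit was also run on simulated counts in which few genes differed, balanced up and down. The data differ from that setting, so the run does not bear on the choice of scale. No library repeated another. Ratios of counts were compared by exact permutation tests.

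Alternatives were DESeq2 size factors, library totals, no or a stricter count filter, a replicate block, leaving out each library, DESeq2 1.42.0, limma 3.58.1 on log2(FPKM + 1) or log2(FPKM + 0.1), leaving out chromosomes I and XII, and a fit without robust estimation. Sequences came from the RefSeq R64 genome, read with Biopython 1.88. The 9 genes and the lists were chosen with earlier results of these data known, and sums of isoenzyme counts were added after seeing the data. From each list, the genes with the largest change and with the smallest adjusted p were named, others only with their values, and for each enzyme gene the 1 gene with the most similar profile.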

Additional observations from a re-analysis of the deposited data

How the results depend on the processing

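*TDH3*, *GPD2*, *GPP1*, *GPP2* and *GUT1* kept their direction and call in all 16 alternatives. Their log2 differences were 0.44 to 0.72, -0.97 to -0.70, -0.68 to -0.39, -0.87 to -0.60 and 0.64 to 0.91. The 6 count ratios also kept their direction, but the alternatives run on them could hardly turn it. None of the 6 overlapped between the strains, so leaving out 1 library cannot change the sign. Gene length and depth cancel where FPKM replaces counts. With library totals, limma on log2(FPKM + 1) and limma on log2(FPKM + 0.1), *TDH1* passed (0.2546, 0.2541 and 0.2543), *GUT2* passed (0.2655, 0.2669 and 0.2676) and *TDH2* changed sign (0.03014, 0.02981 and 0.02999). The first of these moved the median of all genes to 0.22, against 0.0093, and gave 2999 genes higher and 595 lower, against 1507 and 1457. Limma gave 2940 and 558 with 1 added and 2936 and 560 with 0.1 added. Summing *TDH2* and *TDH3*, an alternative chosen after seeing the data, gave 0.3833. *GPD1* lost the call in DESeq2's Wald test (0.2682, adjusted p = 0.0583). On leaving out 1 library, *GPD1* ranged from 0.1448 to 0.369, *TDH2* from -0.2172 to -0.167 and *GUT2* from -0.0004013 (without replicate 1 of BSGX001) to 0.1378, 5 to 7 of the 9 genes were called, and 2484 to 2833 genes in all. The cause was not tested. Replicate numbers did not pair the libraries (correlations of 0.0834, -0.0683 and -0.0536), and a replicate block left 3 of the 9 genes higher and 4 lower, with 1530 genes higher and 1490 lower in all. With 3 libraries against 3 the exact tests cannot go below 0.1, and counts were fewest for *GPD1*.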

Other observations

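For each of the 9 genes, the gene whose centred log2 CPM profile over the 6 libraries lay nearest was sought, as a description of these libraries only. The root-mean-square distances ran from 0.0113 to 0.0567 on the log2 scale. For the *TDH* genes the nearest were *SFH5* (to *TDH1*, 0.0113), *RPG1* (to *TDH2*, 0.0193) and *ECM13* (to *TDH3*, 0.034). For glycerol formation they were *ERC1* (to *GPD1*, 0.0483), *YMR122W-A* (to *GPD2*, 0.0567), *IMP2'* (to *GPP1*, 0.0445) and *PST1* (to *GPP2*, 0.0251). For glycerol use they were *YAR028W* (to *GUT1*, 0.0391), a gene of chromosome I, and *CPR5* (to *GUT2*, 0.0322). With 6 libraries in 2 strains, up to 57 genes lay within a distance of 2 times the smallest, as for *GUT2*.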
